A study of Mus musculus with 12 samples.

Results

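Melanopsin phototransduction was examined through 9 genes: Opn4, Gnaq, Gna11, Gna14, Plcb4, Trpc6, Trpc7, Prkcd and Rasgrp1. They were chosen by gene symbol from the 38887 genes of the deposited expression table, and all 9 were found once and passed the filter on low values. The question was how each step of the cascade differs between a light-sensitive and a direction-selective class of mouse retinal ganglion cell, and how it stands after injury of the axon. Values are RPKM (reads scaled by the length of the gene and the total of the library), so levels can be set side by side between genes.

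Melanopsin, the product of Opn4, is the light-absorbing opsin of intrinsically photosensitive retinal ganglion cells (ipRGCs), which report ambient light for circadian timing and the pupil reflex. It couples to G proteins of the Gq class, whose alpha subunits are made by Gnaq, Gna11, Gna14 and Gna15, and these activate the beta class of phospholipase C, here Plcb4. The enzyme splits a membrane phosphoinositide into inositol trisphosphate and diacylglycerol, and TRPC channels, Trpc6 and Trpc7 above all, then carry the depolarising current. Prkcd (protein kinase C delta) and Rasgrp1 (an activator of Ras) both bind diacylglycerol, the product of the same reaction.

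The 12 libraries formed 4 groups of 3, made from polyA RNA of retina and amplified before sequencing. Opn4 cells were tdTomato-positive cells picked by hand from Opn4CreERT/+;R26-tdTomatof/f mice, in which 1 Opn4 allele carries the inducible Cre and the other is intact. HB9 cells were GFP-positive ON-OFF direction-selective ganglion cells of HB9:GFP mice. Mice of both lines were injected with tamoxifen (0.124 mg per g of body weight, 5 daily doses starting at postnatal day 21) and underwent optic nerve crush or sham surgery at postnatal day 42, with retinas collected 3 days later. Each sample pooled 30 cells, 10 from each of 3 animals, so the spread between libraries is a spread between pools. The inducible Cre that turns on the reporter of Opn4 cells is made from the Opn4 locus. The class difference of Opn4 itself therefore follows from how cells were picked. The mouse line and the cell class cannot be told apart. In pooled cells, fewer cells expressing a gene and less RNA per cell also cannot be told apart.

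Libraries had been scaled to between 15104446 and 28195798 reads and held 15021 to 16514 genes at 1 RPKM or more. Most markers followed the labels. The summed RPKM of 10 ipRGC markers (a list without Opn4) was 1377 to 2154 in Opn4 sham, 1231 to 1574 in Opn4 crush, 84.6 to 91.3 in HB9 sham and 309 to 362 in HB9 crush libraries. In the HB9 crush libraries 263 to 323 RPKM of that sum was Adcyap1 alone. Of the 9 tested ipRGC markers 7 were called higher in Opn4 cells after sham, beside 5.82% of all tested genes called higher. But Spon1 was called lower, at 0.470, 0 and 0.415 RPKM against 33.3, 26.6 and 35.2 RPKM in HB9 sham libraries. Irx1, which did not pass the filter on low values, was below 1 RPKM in every library. Tbx20 and Gem passed that filter only through their Opn4 libraries, where they were high. For both, the share of all tested genes called higher is not a like measure. The 7 markers of direction-selective cells summed to 4932 to 6261 in HB9 sham and 1475 to 6522 in HB9 crush libraries, against 117 to 194 in Opn4 libraries. RNA of rods was present in every library. The 15 rod markers summed to 796 to 2113 RPKM in Opn4 sham, 1166 to 3390 in Opn4 crush, 308 to 1018 in HB9 sham and 619 to 1017 in HB9 crush libraries, and none of the 15 was at 0 throughout a group. Summed RPKM of 9 amacrine markers was 65.0 to 118 in Opn4 sham, 73.4 to 91.9 in Opn4 crush, 67.4 to 92.2 in HB9 sham and 68.0 to 279 in HB9 crush libraries. The 10 bipolar markers summed to 182 to 224, 130 to 362, 124 to 167 and 72.8 to 138 RPKM in the same order of groups, and the 10 Müller glia and astrocyte markers to 318 to 339, 249.2 to 498, 173 to 224 and 90.8 to 210 RPKM. In sham libraries most of the glial sum was Dkk3. Dkk3 was at 247, 280 and 292 RPKM in Opn4 sham and 204, 153 and 176 RPKM in HB9 sham libraries. After crush it was at 233, 208 and 231 RPKM in Opn4 and 41.9, 135 and 38.4 RPKM in HB9 libraries. Of these 10 markers 3 were at 0 throughout a group, or 1 in Opn4 crush libraries. In the bipolar sum, Isl1 alone was at 72.6, 61.6 and 122 RPKM in Opn4 sham libraries. In HB9 sham libraries it was at 56.8, 87.4 and 87.9 RPKM. Of the 10 microglial markers, 5 or 6 were at 0 in all libraries of a group. Opn4 sham replicate 1 and Opn4 crush replicate 1 stood apart from the others on a principal component in an earlier analysis of the table, and the counts of called genes were therefore also taken without both.

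The sequences before the start sites are shown for 4 genes because they include the CG-poor end and 1 example of the CG-rich end among the 9 genes, and the other 5 are given by their counts. They are the 250 bases before the RefSeq start (build GRCm38.p6), written 5′ to 3′ along the gene's own strand, with every CG dinucleotide in capitals. The Gnaq window, on the plus strand at chr19:16132434-16132683, belongs to a gene that was measured in both classes. The windows of Opn4 (minus strand, chr14:34600143-34600392), Gna14 (plus strand, chr19:16435417-16435666) and Trpc7 (minus strand, chr13:56895790-56896039) belong to genes at high levels in Opn4 cells and low or near 0 in HB9 cells.
Gnaq: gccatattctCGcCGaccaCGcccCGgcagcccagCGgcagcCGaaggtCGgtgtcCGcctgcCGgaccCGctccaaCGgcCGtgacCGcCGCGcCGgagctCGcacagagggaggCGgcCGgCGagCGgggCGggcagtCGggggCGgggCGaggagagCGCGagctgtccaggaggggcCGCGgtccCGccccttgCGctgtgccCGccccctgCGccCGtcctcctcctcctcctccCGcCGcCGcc
Opn4: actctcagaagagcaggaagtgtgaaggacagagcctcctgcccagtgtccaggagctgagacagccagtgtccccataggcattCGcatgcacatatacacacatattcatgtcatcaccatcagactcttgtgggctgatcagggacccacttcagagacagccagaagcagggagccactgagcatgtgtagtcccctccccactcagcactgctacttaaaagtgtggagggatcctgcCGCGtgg
Gna14: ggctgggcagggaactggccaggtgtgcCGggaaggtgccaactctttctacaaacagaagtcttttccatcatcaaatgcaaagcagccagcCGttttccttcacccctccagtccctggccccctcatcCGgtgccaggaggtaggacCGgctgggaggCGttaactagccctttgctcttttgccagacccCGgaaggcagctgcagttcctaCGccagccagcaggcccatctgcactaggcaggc
Trpc7: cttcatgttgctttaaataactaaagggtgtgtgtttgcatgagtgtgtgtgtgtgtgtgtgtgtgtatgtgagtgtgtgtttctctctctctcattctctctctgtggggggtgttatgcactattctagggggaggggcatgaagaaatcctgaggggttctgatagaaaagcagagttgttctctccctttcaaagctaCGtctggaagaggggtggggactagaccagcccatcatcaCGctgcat

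The 3 cascade genes that stood at 9.5 RPKM or more in every library, Gnaq, Gna11 and Plcb4, had 37, 38 and 42 CG dinucleotides in this window. The other 6 had fewer: 2 in Trpc7, 3 in Opn4, 7 in Gna14, 12 in Trpc6, 18 in Prkcd and 21 in Rasgrp1. Over all 32807 mouse windows of this length the median was 6, so Gnaq, Gna11 and Plcb4 lay at the percentiles 97.8, 98.1 and 99.1, and the others at 18.8 (Trpc7), 29.0 (Opn4), 53.7 (Gna14), 66.5 (Trpc6), 78.3 (Prkcd) and 83.7 (Rasgrp1). Of the other 6, 4 thus lay above the median of all windows. The split is a description of 9 genes and was not tested. GC content ran from 47.6% in the Trpc7 window to 85.2% in that of Plcb4, with a median of 52.4% over all windows. Both strands of the 9 windows were also searched for GGTGTGA (a T-box motif), TGANTCA (an AP-1 motif) and ATTAAT (a POU motif), which do not contain one another. None of the 3 strings was found in any of the 9 windows, and they occur in 3.33%, 6.75% and 4.39% of all windows.

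Most of the cascade was far higher in ipRGCs than in direction-selective cells. After sham surgery, 7 of the 9 genes were higher in Opn4 cells at an adjusted p under 0.05 (limma on log2(RPKM + 1), Benjamini-Hochberg over 18269 genes), where 5.82% of all tested genes were called higher. The same number, 7, was called higher after crush, against a background of 5.12%. These were Opn4, Gnaq, Gna14, Trpc6, Trpc7, Prkcd and Rasgrp1 in both conditions. Opn4 counts in these numbers, in those without overlap and in the median below, although its class difference follows from how cells were picked. Gna14, Trpc6 and Trpc7 passed the filter on low values only through their Opn4 libraries, where they were high. For these genes the background share is therefore not a like measure. The G protein subunit Gna11 and the phospholipase Plcb4 did not pass the test in either. Without overlap between the classes, 8 of 9 were higher in Opn4 cells after sham and 9 of 9 after crush, beside 15.5% and 12.8% of all tested genes. The 7 calls held in each of the 25 alternative analyses of either condition, 1 of which carried the rod marker level as a covariate and 1 of which left out both libraries that stood apart. Across the 9 genes the median log2 difference was 5.46 after sham and 4.65 after crush, beside 0.01 and -0.12 over all tested genes.

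**Figure D1:**
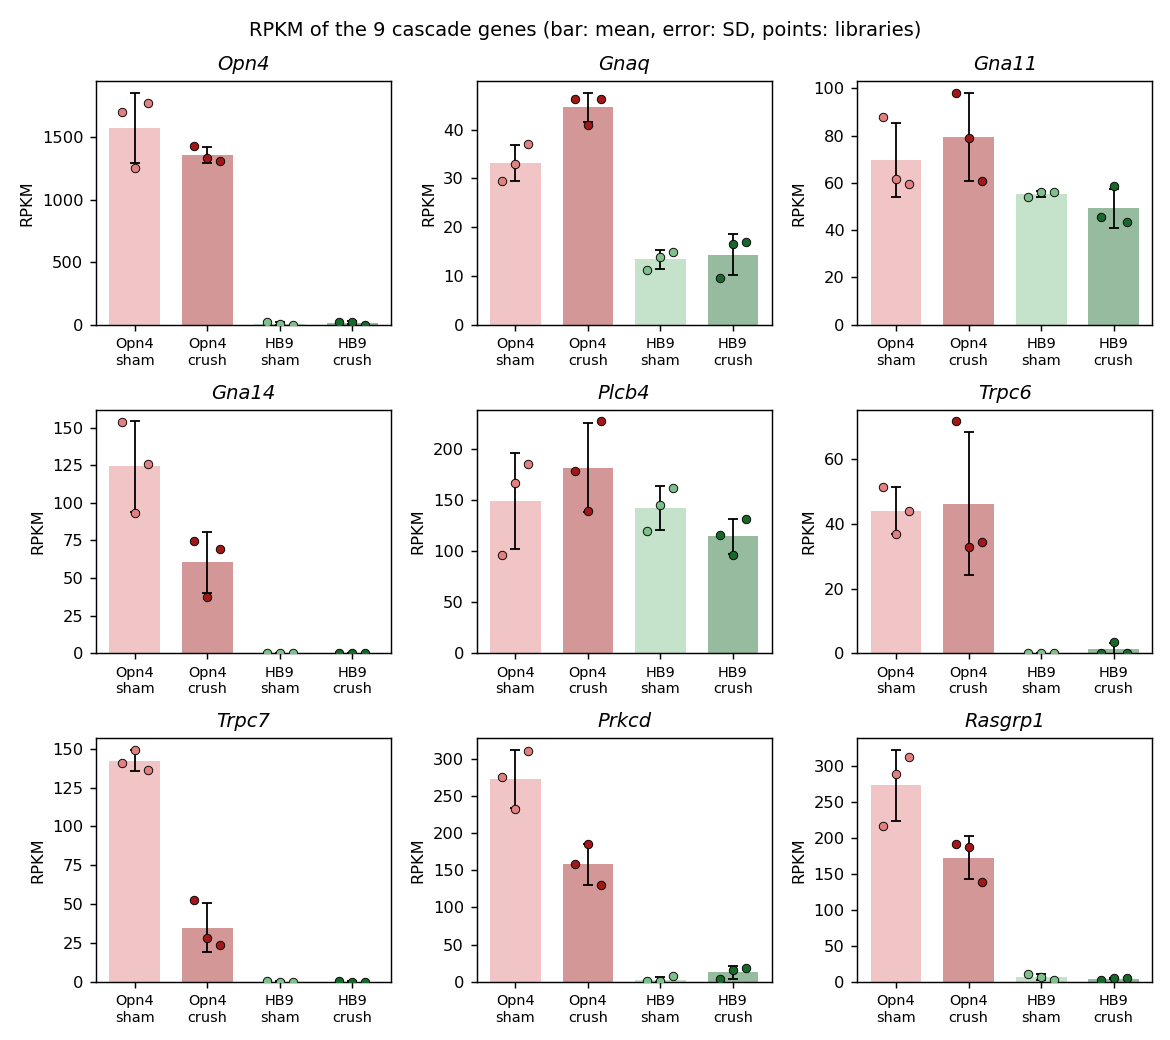
RPKM of the 9 cascade genes in each of the 12 libraries, 1 point per library, with bars for the group mean and error bars for the SD, by group (Opn4 or HB9 cells, sham or crush). Gnaq, Gna11 and Plcb4 were at 9.53 RPKM or more in every library, while Gna14, Trpc6 and Trpc7 stayed below 4 RPKM in all 6 HB9 libraries.

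The receptor, Opn4 (chromosome 14, 34590618 to 34600142, minus strand, ENSMUSG00000021799), was at 1701, 1255 and 1773 RPKM in the sham libraries of Opn4 cells and at 1433, 1335 and 1313 RPKM after crush. Those levels stood between the percentiles 99.5 and 99.7 of tested genes in the 6 Opn4 libraries. In HB9 cells it was at 20.2, 4.88 and 0.158 RPKM after sham and 19.6, 24.3 and 1.82 RPKM after crush. The classes did not overlap, but the HB9 libraries differed widely among themselves, with 3 of the 6 above 10 RPKM. As a check of the labels, the class difference was 8.22 ± 0.90 (log2, SE) after sham, with an adjusted limma p of 7.04e-05. Opn4 was 1576 ± 281 RPKM (SD, n = 3) in sham and 1361 ± 63.9 in crush libraries, whose ranges overlapped, and its log2 crush effect of -0.20 ± 0.90 did not pass the test (adjusted limma p 0.954). Other non-visual opsins gave little RNA in Opn4 cells: encephalopsin, Opn3, averaged 3.65 RPKM after sham, and Opn5, Rgr and Rrh were listed at 0 in those 3 libraries.

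Of the 3 Gq-class subunits among the cascade genes, Gna14 had the largest class difference. Gna14 (chromosome 19, 16435667 to 16610818, plus strand, ENSMUSG00000024697) was at 153, 93.2 and 126 RPKM in Opn4 sham libraries and at 74.9, 37.1 and 69.3 RPKM after crush. In HB9 cells it was at 0.0132, 0.0120 and 0.0595 RPKM after sham, or 1, 1 and 4 reads. After crush the HB9 values were 0.0254, 0.189 and 0 RPKM. Gna14 thus went from the percentiles 90.0 to 93.1 of tested genes in uninjured ipRGCs to the percentiles 5.45 to 9.68 in uninjured direction-selective cells. Its log2 class difference was 6.90 ± 0.37 after sham (adjusted limma p 4.71e-07) and 5.78 ± 0.37 after crush (adjusted limma p 3.48e-06). Because such HB9 values lie near 0, the pseudocount of 1 damps these differences.

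Gnaq (chromosome 19, 16132831 to 16387463, plus strand, ENSMUSG00000024639), which encodes the founding member of the class, was at 29.5, 32.9 and 37.0 RPKM in Opn4 sham and 11.2, 13.9 and 15 RPKM in HB9 sham libraries. After crush it was at 46.3, 41.0 and 46.3 RPKM in Opn4 and 9.53, 16.6 and 17.0 RPKM in HB9 libraries. Every Opn4 value was above every HB9 value, yet the difference was far smaller than that of Gna14: 1.25 ± 0.27 (log2) after sham, adjusted limma p 0.0093, and 1.61 ± 0.27 after crush, adjusted limma p 0.00208. Gna11 (chromosome 10, 81528724 to 81545190, minus strand, ENSMUSG00000034781), a close relative of Gnaq with the same coupling, averaged 69.6 ± 15.7 RPKM in Opn4 sham and 55.4 ± 1.28 in HB9 sham libraries. It averaged 79.4 ± 18.6 in Opn4 crush and 49.3 ± 8.23 in HB9 crush libraries. The classes did not overlap in either condition, but the log2 differences of 0.30 ± 0.23 and 0.66 ± 0.23 did not pass the test (adjusted limma p 0.462 and 0.0783). After crush, the Gna11 difference passed with quantile scaling (adjusted limma p 0.0419) and without Opn4 crush replicate 3 (0.0394).

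Gnaq and Gna14 are neighbours on chromosome 19, on the same strand, with 48203 bases and no listed gene between them. Their order differed between the classes: Gnaq was the lower of the pair in 5 of the 6 Opn4 libraries and the higher in all 6 HB9 libraries. The body of Gnaq overlaps 3 pseudogenes, and E030024N20Rik on the opposite strand reached a mean of 1015 RPKM in Opn4 sham and 1079 RPKM in HB9 sham libraries. Whether the authors' counting used strand is not given in the sources used here, so a contribution of such reads to Gnaq cannot be told apart.

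The makeup of the Gq class within each library shows the same contrast without depending on scaling between libraries. Gna14 formed 54.3% ± 4.09 (SD, n = 3) of the summed RPKM of Gnaq, Gna11 and Gna14 in Opn4 sham libraries and 32.3% ± 8.0 in Opn4 crush libraries. In HB9 libraries it formed between 0% and 0.25%. The mean difference between classes was 43.3 percentage points (exact permutation test within surgery, two-sided, p = 0.005, the smallest of 400 arrangements). Gna14 was chosen with earlier results of these data known and was near 0 in all HB9 libraries. This p therefore follows from the choice of gene and adds no support beyond the values. In HB9 cells Gna11 made up 80.6% of the sum after sham and 77.5% after crush, and Gnaq the rest. The sum itself was 227 ± 41.5 RPKM in Opn4 sham, 184 ± 31.8 in Opn4 crush, 68.8 ± 3.25 in HB9 sham and 63.7 ± 10.5 in HB9 crush libraries. Gna15, the remaining Gq-class gene and the left neighbour of Gna11, had group means no higher than 0.504 RPKM.

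**Figure D2:**
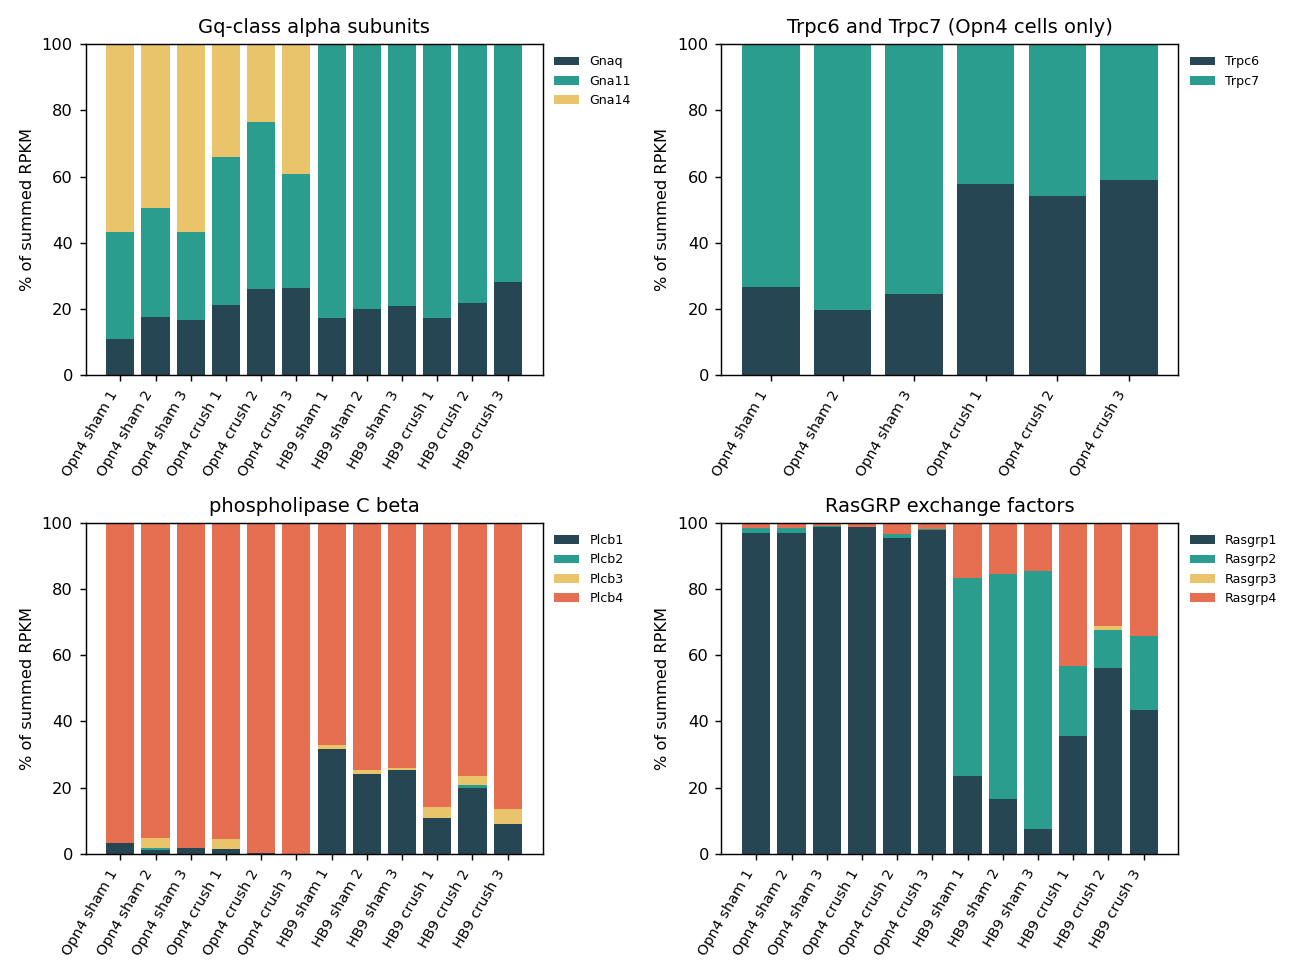
Share of each gene in the summed RPKM of its family, in percent, as 1 stacked bar per library (the channel pair for Opn4 cells only). Gna14 made up 49.6% to 56.7% of the Gq class in Opn4 sham libraries and at most 0.25% in HB9 libraries, Trpc7 made up 73.3% to 80.2% of the channel pair before and 41.1% to 45.8% after crush, and Plcb4 made up most of the phospholipase C beta sum in every library.

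The effector enzyme was not called between the classes in either condition. Plcb4 (chromosome 2, 135659011 to 136014593, plus strand, ENSMUSG00000039943), the phospholipase that melanopsin signalling is known to need, was at 96.1, 166 and 185 RPKM in Opn4 sham and 119, 145 and 162 RPKM in HB9 sham libraries. After crush it was at 178, 139 and 227 RPKM in Opn4 and 116, 96.5 and 131 RPKM in HB9 libraries. The sham groups overlapped and the crush groups did not. Its log2 class difference was 0.02 ± 0.26 after sham (adjusted limma p 0.972), with a sign that turned under TMM scaling and voom, and 0.64 ± 0.26 after crush (adjusted limma p 0.125). Direction-selective cells differed instead in a relative: Plcb1 was at 3.45, 1.93 and 3.53 RPKM in Opn4 sham and 56.6, 47.0 and 55.8 RPKM in HB9 sham libraries. That difference was -3.79 ± 0.46 (log2, adjusted limma p 0.000183). Plcb4 therefore formed 96.6% of phospholipase C beta RPKM in Opn4 sham libraries and 71.9% in HB9 sham libraries, and Plcb1 formed 2.15% and 27.2%.

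Both melanopsin-linked channels were high in Opn4 cells and at or near 0 in HB9 cells. Trpc7 (chromosome 13, 56773113 to 56895789, minus strand, ENSMUSG00000021541) was at 141, 149 and 136 RPKM in Opn4 sham and at 0.400, 0 and 0 RPKM in HB9 sham libraries. After crush it was at 52.7, 27.9 and 23.9 RPKM in Opn4 and 0.328, 0.0193 and 0 RPKM in HB9 libraries. The log2 class difference was 7.0 ± 0.38 after sham (adjusted limma p 4.71e-07) and 4.93 ± 0.38 after crush (adjusted limma p 7.8e-06). Trpc6 (chromosome 9, 8544196 to 8680565, plus strand, ENSMUSG00000031997) was lower than Trpc7 in every Opn4 sham library, at 51.3, 36.9 and 44.1 RPKM. In HB9 sham libraries it was at 0, 0.0402 and 0 RPKM, the middle value being 3 reads. After crush, Trpc6 was at 71.8, 32.9 and 34.3 RPKM in Opn4 cells and 0.227, 3.48 and 0 RPKM in HB9 cells, so that 1 HB9 library, crush replicate 2, stood apart with 297 reads. The log2 class difference of Trpc6 was 5.46 ± 0.54 after sham and 4.65 ± 0.54 after crush (adjusted limma p 3.39e-05 and 0.000152). Across the cascade genes there were 7 values of 0, all in HB9 libraries, where 3 reads would have given 0.0308 to 0.0498 RPKM.

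Trpc1, a TRPC relative whose product joins other channels of the family, was at 39.5, 39.0 and 29.4 RPKM in Opn4 sham and 23.1, 25.1 and 19.9 RPKM in HB9 sham libraries. The sham groups did not overlap, but the log2 difference of 0.64 ± 0.36 did not pass the test (adjusted limma p 0.313). After crush its means were 35.0 ± 20.1 and 33.6 ± 12 RPKM (SD, n = 3), with overlapping groups and an adjusted limma p of 0.984.

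The diacylglycerol-binding genes were at high levels in ipRGCs and low but measurable in direction-selective cells. Prkcd (chromosome 14, 30595356 to 30626210, minus strand, ENSMUSG00000021948) was at 276, 232 and 311 RPKM in Opn4 sham and 0.483, 0.912 and 7.32 RPKM in HB9 sham libraries. After crush it was at 158, 186 and 130 RPKM in Opn4 and 3.30, 15.4 and 19.1 RPKM in HB9 libraries. The log2 class difference was 6.57 ± 0.62 after sham and 3.81 ± 0.62 after crush (adjusted limma p 2.31e-05 and 0.00163). Rasgrp1 (chromosome 2, 117279993 to 117343001, minus strand, ENSMUSG00000027347) was at 217, 289 and 313 RPKM in Opn4 sham and 10.8, 6.72 and 2.67 RPKM in HB9 sham libraries. After crush, 191, 188 and 138 RPKM in Opn4 cells stood against 3.03, 5.59 and 4.84 RPKM in HB9 cells. The Rasgrp1 class differences were 5.29 ± 0.37 and 5.00 ± 0.37 on the log2 scale (adjusted limma p 3.3e-06 and 5.85e-06).

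**Figure D3:**
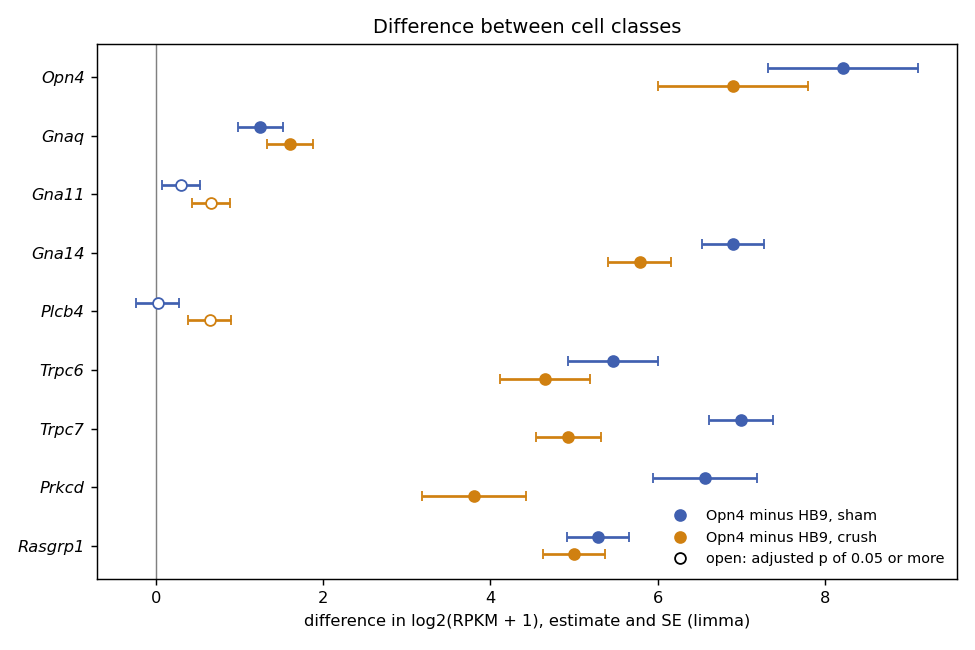
Difference between Opn4 and HB9 cells for each cascade gene, in log2(RPKM + 1) with the limma SE, after sham and after crush (open points did not pass the test). Gna11 and Plcb4 lie at 0.30 and 0.02 after sham and at 0.66 and 0.64 after crush, Gnaq lies at 1.25 and 1.61, and the other 6 lie between 3.81 and 8.22.

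Family members were divided between the classes in these 2 groups as well. Rasgrp1 formed 97.5% of the RPKM of the RasGRP family in Opn4 sham libraries, whereas Rasgrp2, which responds mainly to calcium and acts on Rap, formed 68.5% in HB9 sham libraries. Rasgrp2 was at 3.15, 4.90 and 0.766 RPKM in Opn4 sham against 27.1, 27.6 and 27.4 RPKM in HB9 sham libraries, a log2 difference of -3.02 ± 0.55 (adjusted limma p 0.00316). Among the protein kinase C genes of the class that needs diacylglycerol and not calcium, Prkcd made up 57.7% and Prkcq (theta) 40.6% in Opn4 sham libraries. Prkcq was at 151, 196 and 232 RPKM there and at 19.1, 31.7 and 0.0477 RPKM in HB9 sham libraries, 4.44 ± 0.90 higher on the log2 scale (adjusted limma p 0.00596). With the rod marker level as a covariate the Prkcq difference was 3.54 (adjusted limma p 0.143), and with only the groups compared in the fit its adjusted p was 0.0625. Prkch (eta) went the other way, at 0.832 RPKM in Opn4 sham and 13.9 RPKM in HB9 sham libraries on average (-3.26 ± 0.56, adjusted limma p 0.00199, and 0.0555 with the rod covariate).

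**Figure D4:**
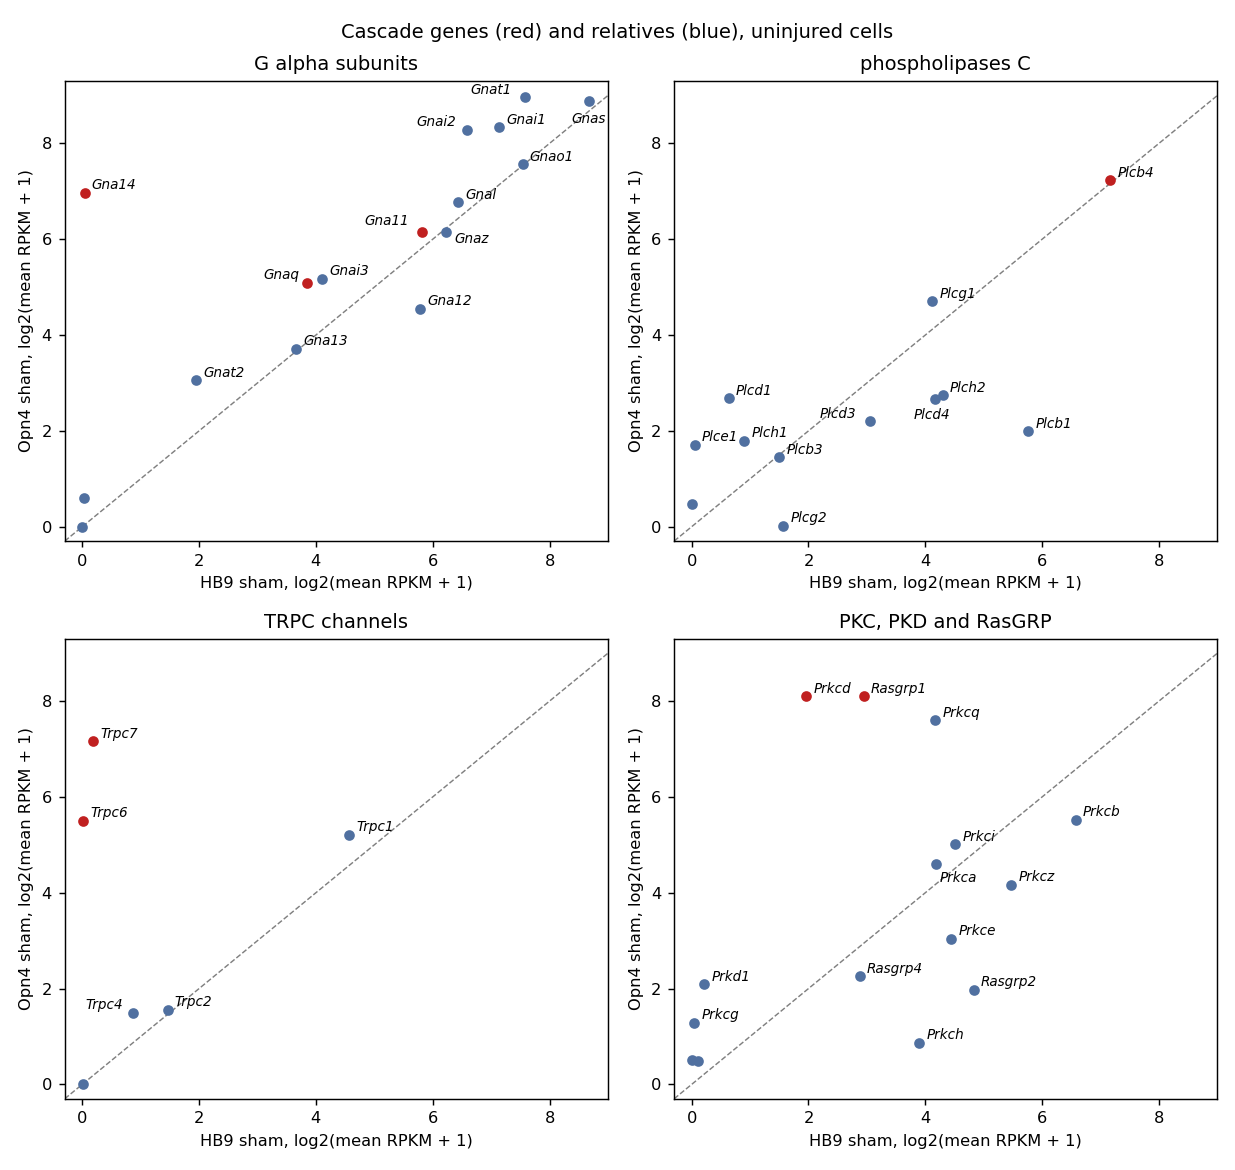
Mean level of cascade genes (red) and relatives of theirs (blue) in HB9 sham (horizontal) and Opn4 sham libraries (vertical), as log2(mean RPKM + 1), with 4 panels by family and a dashed line of equal levels. Gna14, Trpc6, Trpc7, Prkcd and Rasgrp1 lie far above the line, Plcb4 lies on it, and Plcb1, Prkch and Rasgrp2 lie below it.

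Beyond the 9 genes, 9 lists of the surrounding pathway held 118 genes, of which 115 were in the table and 102 were tested. After sham, 13 were higher and 14 lower in Opn4 cells, 26.5% of those tested beside 11.8% of all genes, and after crush 13 were higher and 6 lower, 18.6% beside 12.7%. Their median log2 differences of 0.34 and 0.25 were far from those of the cascade itself. Of 16 tested G beta and gamma genes, 4 were higher after sham, beside 5.82% of all tested genes called higher, and none lower. Gnb4 was at 26.2, 20.8 and 26.9 RPKM in Opn4 sham against 0.731, 0.0928 and 0.540 RPKM in HB9 sham libraries (4.16 ± 0.53 on the log2 scale, adjusted limma p 0.000251). It passed the filter on low values only through its Opn4 libraries, so the background share is not a like measure for it. Gng4 averaged 367 and 81.5 RPKM (2.14 ± 0.17, adjusted limma p 6.07e-06). Among 11 other G alpha genes, the inhibitory subunits Gnai1 and Gnai2 were higher in Opn4 cells and Gna12 was lower after sham. The Gna12 call (-1.21 on the log2 scale, adjusted limma p 0.016) was lost with the rod covariate (0.180) and without HB9 sham replicate 2 or 3 (0.0592 and 0.0795). Gnai2 averaged 311 RPKM in Opn4 sham and 94.9 RPKM in HB9 sham libraries (1.69 on the log2 scale, adjusted limma p 0.000109).

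Of 21 tested genes of phosphoinositide and diacylglycerol turnover, 2 were higher and 5 lower in Opn4 sham libraries, beside 11.8% of all tested genes called in either direction. Of these, Dgka (higher) lost its call in 14 of 25 alternatives and Pip5k1c (lower) in 16. Dgkg, a diacylglycerol kinase that removes the lipid bound by Prkcd and Rasgrp1, was at 124, 146 and 99.8 RPKM in Opn4 sham and 10.3, 4.20 and 1.32 RPKM in HB9 sham libraries (4.58 ± 0.58 on the log2 scale, adjusted limma p 0.000247). Itpr1, an inositol trisphosphate receptor, averaged 2.74 RPKM in Opn4 sham and 22.2 RPKM in HB9 sham libraries (-3.06 ± 0.69, adjusted limma p 0.0117). That call was lost in 4 of 25 alternatives, among them the rod covariate (-1.93, adjusted limma p 0.278) and leaving out HB9 sham replicate 3 (adjusted p 0.05004). In the list of 14 tested RasGRP, Ras and Erk genes, 1 was called higher and 1, Rasgrp2, lower after sham. That stood beside 11.8% of all tested genes called in either direction. The higher one was Mapk3, an Erk kinase downstream of Ras, at 94.9 against 35.6 RPKM (1.36 on the log2 scale, adjusted limma p 0.00121). Of 13 tested genes of opsin phosphorylation and shutoff, 2 were higher, beside 5.82% of all tested genes, and none lower. Both calls depended on the analysis: Adrbk1 lost its call in 13 of 25 alternatives and Prkacb in 7. None of 4 tested other opsins passed.

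The low Opn4 signal in some HB9 libraries could be set beside the rest of the cascade. In the 3 HB9 libraries with Opn4 above 10 RPKM, Gna14 stood at 0.0651% to 0.775% of the Opn4 level and Trpc7 at 0.0793% to 1.98%. In Opn4 sham libraries these ratios were 7.10% to 9.01% for Gna14 and 7.68% to 11.9% for Trpc7, and in Opn4 crush libraries 2.78% to 5.28% and 1.82% to 3.67%. The other 3 genes ran over wider ranges. In those HB9 libraries Trpc6 stood at 0% to 14.3% of Opn4, Prkcd at 2.39% to 63.1% and Rasgrp1 at 15.4% to 53.2%, against 2.49% to 3.02%, 16.2% to 18.5% and 12.7% to 23.0% in Opn4 sham libraries. The part of RNA from other cells in these low values was not tested.

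Optic nerve crush moved only 1 of the 9 genes past the threshold in Opn4 cells. Trpc7 fell from 142 ± 6.74 to 34.8 ± 15.6 RPKM (SD, n = 3), a ratio of 4.09, with a log2 effect of -2.08 ± 0.38 (adjusted limma p 0.0209). That is 1 of 9 genes called lower, beside 0.421% of all tested genes called lower and 1.11% called in either direction. All 3 crush libraries lay below all 3 sham libraries. The fall kept its direction in each of 25 alternatives, between -2.42 and -1.86, and its call in 16. Its adjusted p was 0.260 with a pseudocount of 0.1, 0.0522 with 0.5, 0.113 with only the groups compared, 0.0519 with weighted libraries, and 0.0532 to 0.0663 without any 1 of the Opn4 sham replicates or of Opn4 crush replicates 2 and 3.

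Another 3 cascade genes were lower in every crush library of Opn4 cells than in every sham library without passing the test: Gna14, Prkcd and Rasgrp1. With Trpc7 this made 4 of 9 without overlap, where 7.33% of all tested genes showed that. Gna14 averaged 124 ± 30.1 RPKM after sham and 60.4 ± 20.4 after crush (log2 effect -1.06 ± 0.37, adjusted limma p 0.213). Prkcd averaged 273 ± 39.4 and 158 ± 28.1 RPKM (-0.79 ± 0.62, adjusted limma p 0.608). Rasgrp1 averaged 273 ± 49.9 and 172 ± 29.6 RPKM (-0.66 ± 0.37, adjusted limma p 0.459).

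In the opposite direction, Gnaq was higher in every crush library of Opn4 cells, with means of 33.1 ± 3.75 and 44.5 ± 3.03 RPKM and a ratio of 1.34. It was 1 of 9 genes without overlap in that direction, against 7.38% of all tested genes, and its log2 effect of 0.42 ± 0.27 did not pass the test (adjusted limma p 0.522). Gna11, Plcb4, Trpc6 and Opn4 overlapped between sham and crush, with adjusted limma p values of 0.758, 0.624, 1 and 0.954. The median log2 effect over the 9 genes was -0.20, and over all tested genes -0.02. The summed rod markers of Opn4 cells were higher in crush than in sham libraries at both ends of the range, but the ranges overlapped. Of the 15 rod markers 0 were called for crush in Opn4 cells, beside 1.11% of all tested genes. With the rod marker level as a covariate Trpc7 remained past the threshold, as it did without both Opn4 libraries that stood apart (-2.42, adjusted limma p 0.0323).

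**Figure D5:**
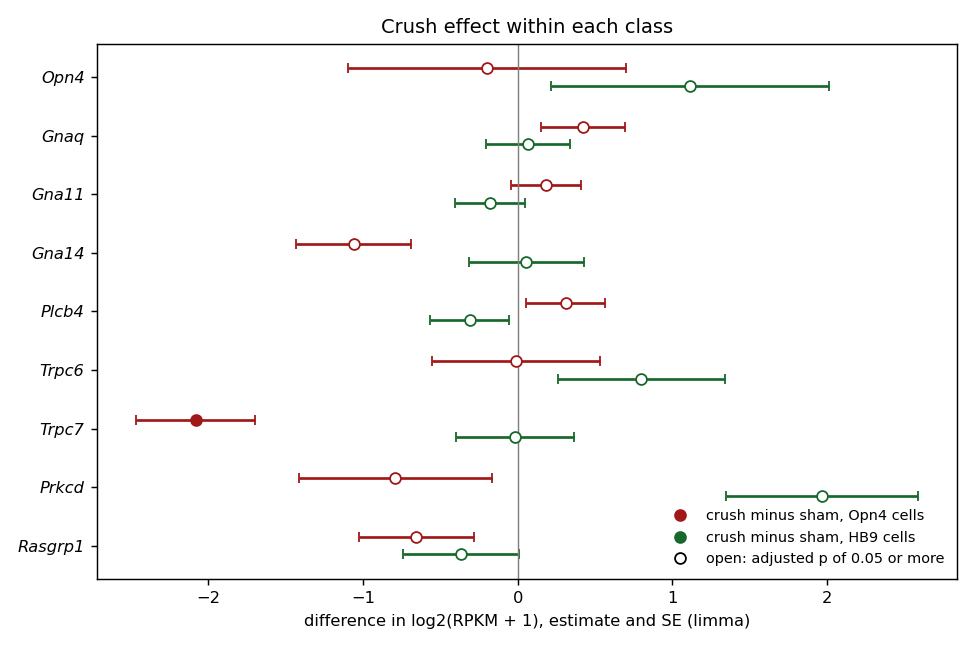
Effect of optic nerve crush on each cascade gene, as the difference in log2(RPKM + 1) with the limma SE, in Opn4 cells and in HB9 cells (open points did not pass the test). Trpc7 in Opn4 cells, at -2.08, is the one effect past the threshold, and Prkcd in HB9 cells, at 1.97, did not pass it.

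The makeup of the channel pair in Opn4 cells differed between sham and crush. Trpc7 formed 73.3% to 80.2% of the summed RPKM of Trpc6 and Trpc7 in Opn4 sham libraries and 41.1% to 45.8% in Opn4 crush libraries. The mean difference was -33.3 percentage points (exact permutation test, two-sided, p = 0.1, the smallest that 3 against 3 can give). This share was chosen after the values had been seen. Within the Gq class, the Gna14 share differed by -22.0 points between Opn4 crush and sham libraries, with no overlap and the same exact permutation p of 0.1. The sum of both channels was 186 ± 5.95 RPKM after sham and 81.1 ± 37.5 after crush.

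In HB9 cells none of the 9 genes passed the test for crush in limma, where 6.42% of all tested genes did. With an unadjusted limma p under 0.05 there was 1, Prkcd, beside 18.9% of all tested genes, and voom on recovered reads called none. Prkcd averaged 2.91 ± 3.83 RPKM after sham and 12.6 ± 8.26 after crush (log2 effect 1.97 ± 0.62, adjusted limma p 0.0865), and the groups overlapped through sham replicate 3. The amacrine markers were mixed in the same libraries. Th was at 0.0754, 0 and 0 RPKM in HB9 sham and 0, 105 and 51.9 RPKM in HB9 crush libraries. Slc6a9 was at 5.57, 3.59 and 0.215 against 42.8, 35.7 and 39.9 RPKM. Pax6 went the other way, at 65.9, 59.4 and 67.6 against 17.5, 43.3 and 22.3 RPKM. Gad1 was at 16.0, 1.52 and 2.85 against 5.54, 65.3 and 7.64 RPKM. Of the 9 tested amacrine markers 1 was called higher and none lower after crush, beside 6.42% of all tested genes called in either direction. Chat was at 0 in all HB9 libraries, and the part of such RNA in the Prkcd values was not tested. Leaving out HB9 sham replicate 3 gave a Prkcd effect of 2.74 with an adjusted limma p of 0.0132. Without HB9 crush replicate 1 it was 2.66 with 0.0235. The rod covariate gave 2.32 with 0.0347 and weighted libraries gave 1.87 with 0.0362. Plcb4 averaged 142 ± 21.5 RPKM after sham and 114 ± 17.2 after crush, and Gna11 55.4 ± 1.28 and 49.3 ± 8.23. Neither passed (adjusted limma p 0.599 and 0.766). Gna14, Trpc6 and Trpc7 passed the filter on low values through their Opn4 libraries and were at or near 0 in most HB9 libraries, so the count of 0 says little about these 3.

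Among the relatives in HB9 cells, 2 rose and 5 fell of the 102 tested, 6.86% beside the 6.42% of all genes. Rasgrp2, the main RasGRP gene of those cells, fell from 27.4 RPKM on average to 1.80, 1.14 and 2.45 RPKM (-3.37 ± 0.55 on the log2 scale, adjusted limma p 0.00251). Rasgrp1 then formed 45.1% of RasGRP RPKM in place of 15.9%, while its own level did not pass the test (adjusted limma p 0.687). Gnao1 and Gnaz, G alpha subunits of the inhibitory class, fell by 0.89 and 1.02 on the log2 scale (adjusted limma p 0.00469 and 0.00796). In Opn4 cells none of the 102 passed in limma, and 18 had an unadjusted p under 0.05, beside 14.3% of all tested genes.

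The crush effects of the classes were compared directly. None of the 9 genes passed this interaction test in limma, where 0.816% of all tested genes did, 2 had an unadjusted p under 0.05 (12.9% of all tested genes did), and voom on recovered reads called none. The 2 were Trpc7, with a difference of effects (Opn4 minus HB9) of -2.07 ± 0.54 on the log2 scale and an adjusted limma p of 0.113, and Prkcd, with -2.76 ± 0.88 and an adjusted limma p of 0.196. Gna14 followed with -1.12 ± 0.53 (adjusted limma p 0.402). Trpc7 and Gna14 were near 0 in HB9 cells already after sham. The class and crush comparisons share the same sham libraries, so their values are given side by side and not correlated.

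Genes whose pattern over the 12 libraries was most like that of Opn4, by Pearson r on log2(RPKM + 1), were Gm6166 (0.979), Rab3b (0.977), Ifitm10 (0.977), Tmcc3 (0.976) and Dgkg (0.975). Among all tested genes, Trpc6 ranked 30th (r = 0.961), Rasgrp1 32nd (0.960), Gna14 55th (0.949) and Trpc7 105th (0.936). Gnaq and Prkcd ranked 410 and 422 (0.855 and 0.853), Gna11 1380 (0.704) and Plcb4 5100 (0.310). These r values are descriptive, and since the libraries form 2 separate classes they mainly reflect that difference. Within the 6 Opn4 libraries other genes were the most alike, H3f3a (0.992), Gm12165 (0.990), Srp14 (0.986), Gm14303 (0.984) and Gm12719 (0.981), and none of the cascade genes was among them.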

How the data were processed

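Polyadenylated RNA of 12 pools of hand-picked ganglion cells had been pre-amplified and sequenced on an Illumina HiSeq. The authors deposited 1 RPKM value per gene and library. Per the submitters' processing notes, the tools were Bowtie, TopHat2 (2.0.11) and edgeR (3.14.0) on build mm10; the counting step, its use of strand and the annotation are not given in the sources used here. Multiplied by gene length, the RPKM of short genes came in whole steps of 1 read (100% within 0.01 read), which gave each library's scaling total and whole reads. Those reads served for floors of 3 reads and 1 alternative, since they summed to 34996820 to 68406272 per library, more than the scaling totals. Floors cover counting error only, because PCR copies of a molecule were counted separately.

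Genes that reached an RPKM of 1 in 3 or more of the 12 libraries were tested as log2(RPKM + 1) with limma 3.58.1 in R 4.3.3 (4 group means, intensity trend). Tests were two-sided and adjusted by Benjamini-Hochberg over the 18269 genes of a comparison, with a threshold of 0.05. SE values are limma's and SD values are over 3 libraries. Nothing says that pools of a group came from separate days, so p-values measure the spread between these pooled samples. Shares within a library were tested by exact permutation. The fit was tested on simulated data. Replicate numbers were not taken to pair samples (sensitivity section).

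Members, pathway lists and marker lists were chosen with earlier results of these data known. The 9 cascade genes and the relatives of the G alpha, phospholipase C, TRPC, protein kinase C, RasGRP and opsin families could be named whatever they showed. Of the other lists, up to 4 genes per comparison with the largest called differences could be named, together with the 5 genes most like Opn4 and genes next to a cascade gene. Promoter windows came from RefSeq (GRCm38.p6), where all 9 symbols matched, 0 to 536 bases from the deposited start. The values of 1 relative are not reported here.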

Additional observations from a re-analysis of the deposited data

How the results depend on the processing

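Each comparison was recomputed under 25 alternatives (24 for the difference of crush effects): pseudocounts, filters, scalings, weights, voom on recovered reads, a rod covariate, a replicate block and each library left out. The 7 class calls held throughout. In Opn4 cells, 0 cascade genes were called for crush with pseudocounts of 0.1 and 0.5, only the groups compared, and weighted libraries, and 0 to 1 with a library left out. In HB9 cells 1 (Prkcd) was called with weighted libraries and the rod covariate, and 0 to 1 with a library left out. The cause was not tested.

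Some uncalled log2 values changed sign. Between classes after sham, Plcb4 was -0.035 with TMM, -0.066 with voom and -0.16 to 0.31 with a library left out, and Gna11 was -0.0092 with the rod covariate. For crush in Opn4 cells, Opn4 was 0.068 with quantile scaling and Trpc6 ran from -0.37 to 0.18 without 1 library. For crush in HB9 cells, Gnaq was -0.047 with TMM, -0.11 with quantile scaling, -0.068 with weights and -0.021 with voom, Trpc7 0.0097 with a pseudocount of 0.1, 0.087 with weights and 0.34 with voom, and Gna14 -0.10 with quantile scaling. With a library left out these ran from -0.070 to 0.32, from -0.15 to 0.15 and from -0.022 to 0.10, and Rasgrp1 from -0.83 to 0.013. The Rasgrp1 difference of crush effects ran from -0.67 to 0.17.

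Over all genes, calls ranged from 839 to 2958 (2148 reported) between classes after sham, 932 to 2619 (2325) after crush, 13 to 226 (203) for crush in Opn4 cells, 645 to 3025 (1172) in HB9 cells and 61 to 200 (149) for their difference. The median log2 crush effect in HB9 cells was 0.11 as reported, 0.02 with TMM and -0.01 with quantile scaling, and its 702 higher and 470 lower calls became 594 and 682, and 600 and 605. The median of the difference of crush effects moved from -0.13 to -0.02 and 0.01 with these scalings, and that of the class difference after crush from -0.12 to -0.06 and -0.01. Class calls after crush went from 936 and 1389 to 1160 and 1185 with quantile scaling.

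The Gna14 share difference between classes was 43.2 points with Gna15 added, 35.3 in reads and 41.5 to 45.4 with a library left out. Its exact permutation p was 0.005 throughout, which follows from the near-0 Gna14 values in HB9 libraries and is no added support. The share difference of Trpc7 for crush in Opn4 cells (Trpc7 share of Trpc6 plus Trpc7 RPKM, Opn4 crush minus sham) was -31.8 in reads and -34.8 to -31.4 with a library left out. Replicate numbers did not pair the libraries (same-number correlations -0.02 to 0.08, and 5 of 12 libraries correlated best with their own number), and the replicate block gave 7, 7, 1, 0 and 0 called cascade genes, as without it. Totals of 15104446 to 28195798 reads set the precision: genes at or under 3 reads cannot be told from 0.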
